A study of Aedes aegypti with 7 samples.

Results

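The microRNAs miR-1 and miR-133 were followed in the fat body of adult female Aedes aegypti, the yellow fever mosquito, before and after a blood meal. Both were taken by exact name: aae-miR-1 and aae-miR-133 are 2 of the 124 mature miRNAs in the deposited small RNA table, and their precursors aae-mir-1 and aae-mir-133 hold 3 of the 100836 peaks in the deposited AGO1 CLIP table. The females were of the UGAL/Rockefeller strain with no stated genetic change. Unfed females were sampled at 72 h PE (hours post eclosion, that is, after emergence of the adult, a term the labels use for females a few days old), and fed females of the same cage at 6, 24, 36 and 48 h PBM (hours post blood meal). Small RNA was sequenced at all 5 times in 3 libraries each, 15 libraries in all. AGO1 CLIP-seq, in which tissue is irradiated with UV light and RNA bound to the protein AGO1 is pulled down with an antibody, was done on unfed females and at 24 h PBM in 3 libraries each, 6 in all. The labels call the replicates biological, but do not say how many females each held or whether the body wall, which carries muscle, was removed. Fed females were also older than unfed ones, so the meal and age cannot be told apart.

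A miRNA is a short RNA cut from a hairpin precursor and loaded into an Argonaute protein, in insects mostly AGO1, which it guides to partly complementary sites in messenger RNAs that are then repressed. miR-1 and miR-133 are known as the muscle miRNAs of animals: in Drosophila miR-1 is made in the mesoderm and in muscle and is needed for muscle growth, and in vertebrates both come from shared transcripts and act in the formation of heart and skeletal muscle. The fat body is the insect organ of storage and metabolism, lies along the abdominal wall, and makes the yolk protein vitellogenin for the eggs after a blood meal. In such bulk tissue, fewer cells of a type and less RNA per cell cannot be told apart.

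The small RNA libraries held 8558678 to 29670297 reads, of which 2112431 to 6317980 fell on the 124 miRNAs. The CLIP libraries were far shallower, with 69424 to 132758 counts in peaks, of which 14268 to 29398 lay on miRNA precursors. Markers of other tissues varied between libraries. The summed level of 5 midgut miRNAs (the arms of miR-281, miR-1174 and miR-1175) ran from 3413 to 35529 CPM (counts per 1000000 miRNA reads of a library) in all but 1 library, and stood at 215693 in replicate 3 of 48 h PBM. The 12 ovary and embryo miRNAs summed to 813 to 1441 CPM at 72 h PE, 16.1 to 20.99 at 6 h PBM, 3427 to 10473 at 24 h PBM, 9821 to 15042 at 36 h PBM and 6761 to 19954 at 48 h PBM. Their part in the results on miR-1 and miR-133 was not tested.

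The members' peaks lay on different supercontigs of the AaegL3 assembly. The single peak of mir-133 was at supercont1.778:350305-350328 on the minus strand, and its 95 counts over the 6 libraries placed it 618th of the 100836 peaks by the deposited count. The main peak of mir-1 was at supercont1.812:291372-291396 on the plus strand, with 4244 counts, the 10th highest in the table. A further peak of mir-1 at supercont1.812:291333-291353, 19 bases upstream, held 1 count, in replicate 3 of 24 h PBM, so 99.98% of the precursor's counts fell in the main peak. All 3 peaks were annotated as miRNA precursors. Coordinates are as deposited, where peak length equals end minus start; whether the start counts from 0 or 1 is not given in the sources used here. In the small RNA table each precursor has 1 mature row, so no second arm entered their values.

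miR-1 was at its highest in the small RNA libraries of 24 h PBM and lower again at 36 h PBM. At 72 h PE its level, in CPM after TMM scaling (which sets libraries to a common level through the bulk of their miRNAs), was 296, 269.8 and 397 in the 3 libraries. At 6 h PBM it was 401, 621 and 776. At 24 h PBM it was 947, 981 and 1151, above every library of each other time. At 36 h PBM it was 149, 407 and 569, and at 48 h PBM 607, 512 and 615. The 36 h PBM libraries spread the most: replicate 1, the shallowest of the 15 libraries, had the lowest level of all and the other two lay above the 72 h PE range.

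**Figure D1:**
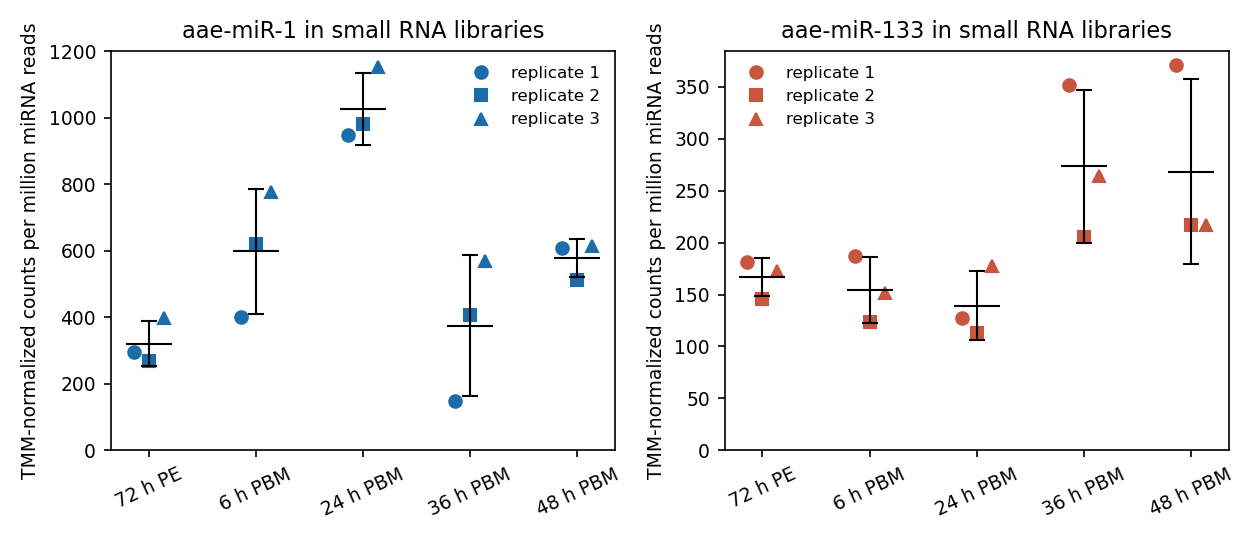
Level of miR-1 (left) and miR-133 (right) in each small RNA library, in TMM-scaled CPM on a linear axis from 0, by time; symbols mark the replicate number, and lines with bars the mean and SD of 3 libraries. The 3 libraries of 24 h PBM stand highest for miR-1, at 947 to 1151, and for miR-133 they lie, at 113 to 177, below all libraries of 36 and 48 h PBM and overlap those of 72 h PE and 6 h PBM.

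Against 72 h PE, where miR-1 averaged 320.8 ± 67.0 (SD, n = 3), it rose 3.20-fold to 1027 ± 109 at 24 h PBM (log2 change 1.68, SE 0.39; edgeR quasi-likelihood adjusted p = 0.00669). In the same comparison 23.7% of the 114 miRNAs tested passed the 0.05 threshold in either direction and 17.5% as higher. From 24 to 36 h PBM miR-1 fell by 1.45 on the log2 scale (SE 0.39; edgeR adjusted p = 0.0214) to 375 ± 212, where 17.5% of the miRNAs passed and 7.89% passed as lower. The other comparisons of miR-1 did not pass. Its log2 change from 72 h PE was 0.90 at 6 h PBM (SE 0.38; edgeR adjusted p = 0.164), 0.23 at 36 h PBM (edgeR adjusted p = 0.705) and 0.85 at 48 h PBM (edgeR adjusted p = 0.125). Those 3 times had 12.3%, 26.3% and 24.6% of miRNAs called. From 6 to 24 h PBM the log2 change was 0.78 (edgeR adjusted p = 0.209), where 14.9% were called. Scaling by library totals in place of TMM raises the median change of all miRNAs from 72 h PE to 48 h PBM by 0.39; the change of miR-1 then became 1.23 and passed (edgeR adjusted p = 0.0248), but relative to the median of all miRNAs it was 0.80, against 0.81 under TMM. The fall from 24 to 36 h PBM was no longer called when replicate 3 of 24 h PBM was left out (log2 change -1.36, edgeR adjusted p = 0.0579) or when only both compared times were fitted (log2 change -1.42, edgeR adjusted p = 0.11).

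miR-133 followed another course, with its higher levels at 36 and 48 h PBM. It stood at 182, 146 and 173 CPM at 72 h PE, at 187, 124 and 152 at 6 h PBM, and at 128, 113 and 177 at 24 h PBM. These 3 times overlapped throughout. The libraries of 36 h PBM held 352, 205 and 264, and those of 48 h PBM held 372, 216.8 and 217.1, each above every library of the earlier times. Replicate 1 was the highest library at both of the late times.

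The step that passed for miR-133 was from 24 to 36 h PBM, where it rose 1.96-fold, from 139 ± 33.6 to 274 ± 73.7 CPM (SD, n = 3; log2 change 0.97, SE 0.28; edgeR adjusted p = 0.0271), beside 9.65% of miRNAs called higher. This call was lost, with edgeR adjusted p between 0.0505 and 0.106, when replicate 1 or 2 of 24 h PBM or replicate 1 or 3 of 36 h PBM was left out. The log2 change in those fits was 0.92, 0.84, 0.75 and 1.004. Against 72 h PE (167 ± 18.5) the log2 change was -0.11 at 6 h PBM (edgeR adjusted p = 0.854), -0.26 at 24 h PBM (edgeR adjusted p = 0.585), 0.71 at 36 h PBM (SE 0.28; edgeR adjusted p = 0.0773) and 0.69 at 48 h PBM (SE 0.28; edgeR adjusted p = 0.0823). The value at 6 h PBM was 0.10, of the opposite sign, with library totals. Without replicate 3 of 48 h PBM, the library rich in midgut miRNAs, the log2 change at 48 h PBM was 0.80 for miR-1 and 0.82 for miR-133, neither past the threshold (edgeR adjusted p = 0.241 and 0.0875). Without replicate 1 of 48 h PBM the change of miR-133 was 0.28 (edgeR adjusted p = 0.448). The late values of miR-133 passed under several other settings given in the closing section. From 36 to 48 h PBM neither member passed (log2 0.62 for miR-1 and -0.03 for miR-133, the latter 0.11 with library totals); edgeR called 0% of miRNAs there, 0 of 114, with 24 at an unadjusted p under 0.05, and DESeq2 called 16.

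Over the 5 times together, the edgeR F test gave an adjusted p of 0.0181 for miR-1 and 0.0213 for miR-133. Of all miRNAs, 47.4% passed that test. Leaving out replicate 3 of 24 h PBM took miR-1 to 0.0536, and leaving out replicate 1 of 24 h PBM took miR-133 to 0.0501. By level, both members ranked in the middle of the 88 precursors by mean share of miRNA reads. miR-1 was 44th at 72 h PE, 39th at 6 h PBM, 35th at 24 h PBM, 50th at 36 h PBM and 44th at 48 h PBM. miR-133 was 52nd, 52nd, 57th, 51st and 54th at the same times, directly below miR-1 at 36 h PBM.

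The ratio of miR-1 to miR-133 within a library needs no scaling between libraries. It was 1.63, 1.85 and 2.30 in the 3 libraries of 72 h PE and 2.14, 5.02 and 5.12 at 6 h PBM. At 24 h PBM it was 7.42, 8.66 and 6.49, above every other small RNA library. It was 0.425, 1.98 and 2.16 at 36 h PBM and 1.63, 2.36 and 2.83 at 48 h PBM. Replicate 1 of 36 h PBM was the single library with more miR-133 than miR-1, at 753 against 320 reads.

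**Figure D2:**
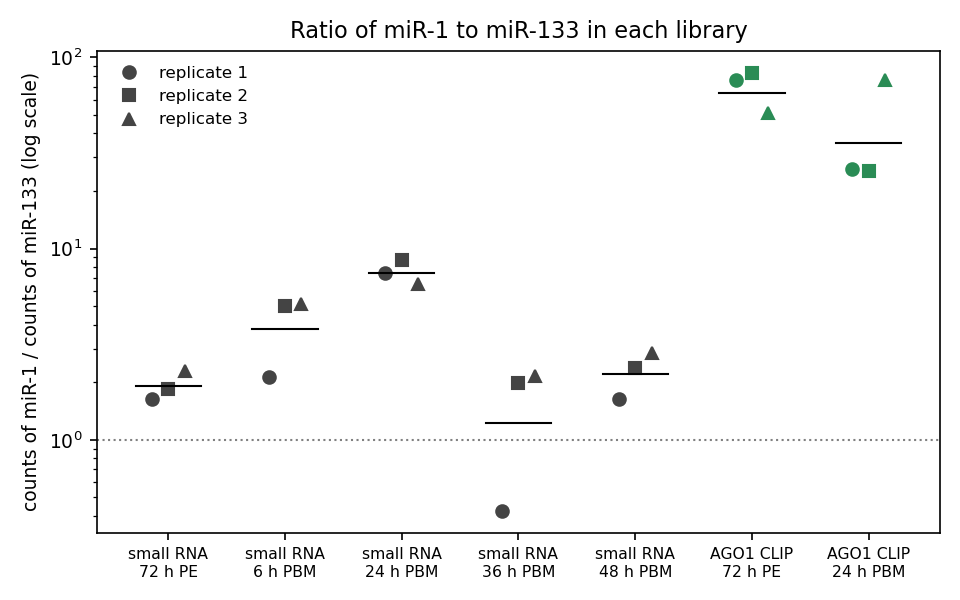
Counts of miR-1 divided by counts of miR-133 in each library, on a log axis, by assay and time; symbols mark the replicate number, short lines the geometric mean of 3 libraries, and the dotted line equal counts. The small RNA ratio is highest at 24 h PBM (6.49 to 8.66), and every AGO1 CLIP library lies above all small RNA libraries.

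The geometric mean of the ratio went from 1.91 at 72 h PE to 3.799, 7.47, 1.22 and 2.22 at 6, 24, 36 and 48 h PBM. The times differed (exact permutation test of the F statistic over all 1401400 divisions of the 15 libraries into 5 groups of 3, p = 0.00316). This did not hold without the libraries numbered 2 (exact p = 0.123). Each later time was then set against 72 h PE, 4 comparisons in which 3 against 3 libraries cannot give an exact permutation p under 0.1. The ratio at 24 h PBM was 3.92-fold that of 72 h PE with no overlap (exact p = 0.1, 0.4 after Benjamini-Hochberg adjustment over the 4). The exact permutation p was 0.2 for 6 h PBM, 0.8 for 36 h PBM and 0.4 for 48 h PBM (adjusted 0.4, 0.8 and 0.533).

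Across the 15 libraries the log2 levels of miR-1 and miR-133 had a Pearson r of -0.45 (permutation p = 0.0961) and a Spearman rho of -0.39 (permutation p = 0.152). Without the 2 libraries farthest from the median of miR-1, replicate 1 of 36 h PBM and replicate 2 of 72 h PE, r was -0.34. On the deposited RPM values, r was -0.22. Taken as deviations from the mean of each time, r was -0.32 (permutation p = 0.423 within times). No relation between the members was therefore detectable in these libraries. Since levels within a library share its scaling, these values are descriptions of 1 pair out of the whole table.

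The miRNAs whose levels over the 15 libraries were most like those of miR-1 by Pearson r, given as a description of 113 others on shared libraries, were miR-71-5p (0.905), miR-34-5p (0.887), miR-7 (0.868), miR-1891 (0.747) and miR-305-3p (0.699). Mean levels of miR-34-5p, for example, were 3195, 4044, 6769, 2808 and 4463 CPM at the 5 times in order. For miR-133 the most like were miR-957 (0.911), miR-1000 (0.874), miR-71-3p (0.792), miR-286a (0.789) and miR-124 (0.783). Mean levels of miR-957 were 218, 174.5, 158, 268 and 301 CPM. miR-133 ranked 97th of the 113 for miR-1, and miR-1 ranked 94th for miR-133. The arms of miR-71 divided between the members, with miR-71-5p nearest to miR-1 and miR-71-3p 3rd for miR-133. Other miRNAs linked to muscle in Drosophila (miR-92b, miR-9a and let-7) gave 3 tested rows. None passed at 6 or 24 h PBM against 72 h PE or from 24 to 36 h PBM. Of all miRNAs 12.3%, 23.7% and 17.5% passed there, and 3 rows are too few to set against these shares. Their log2 changes were -1.15 (edgeR adjusted p = 0.0718), -0.05 and -0.08 at 6 h PBM. At 24 h PBM they were -0.50, -0.05 and -0.20.

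In the AGO1 CLIP libraries mir-1 was among the leading precursors and mir-133 was sparse. The counts of mir-1 were 833, 748 and 564 at 72 h PE and 855, 561 and 684 at 24 h PBM. As a share of all counts on miRNA precursors these were 3.88%, 3.97% and 3.95% before the meal and 2.91%, 2.70% and 2.83% after it, with 95% Wilson intervals that lay within 3.63% to 4.29% and 2.49% to 3.11%. The intervals of the libraries of 1 time overlapped, and those of the times did not. The counts of mir-133 were 11, 9 and 11 at 72 h PE and 33, 22 and 9 at 24 h PBM. Their shares were 0.0513%, 0.0477% and 0.0771%, then 0.112%, 0.106% and 0.0372%. Single-library intervals were as wide as 0.0431% to 0.138%, in replicate 3 of 72 h PE. The times of mir-133 overlapped, since replicate 3 of 24 h PBM was the lowest library of all. Intervals cover counting error only.

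**Figure D3:**
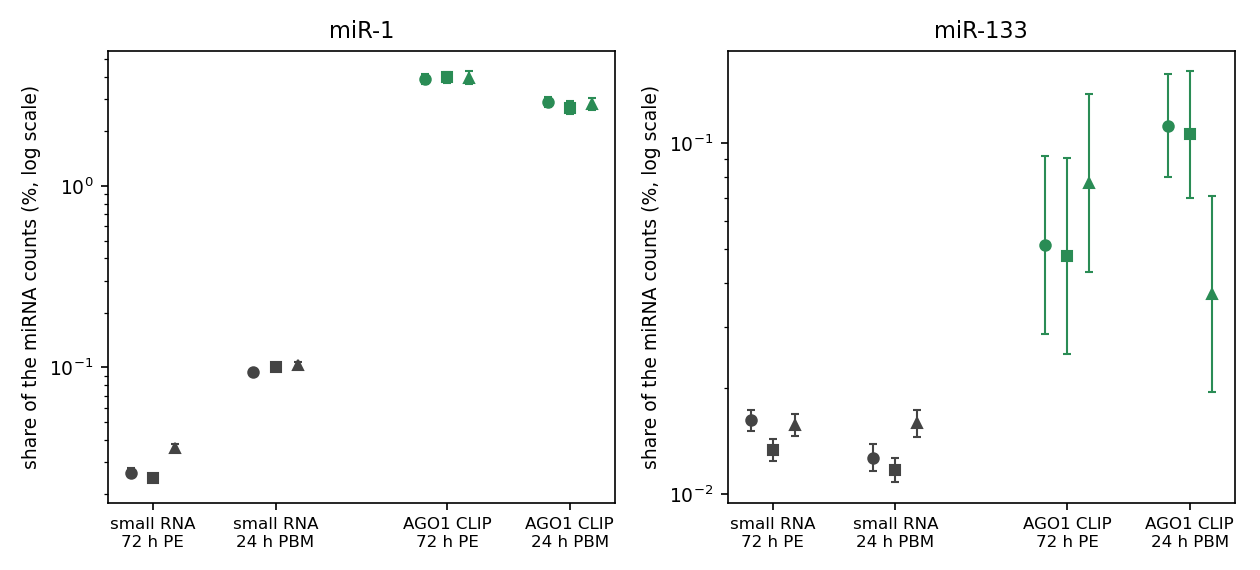
Share of miR-1 (left) and miR-133 (right) among all miRNA counts of a library, in percent on a log axis whose range differs between the panels, for both assays before the meal (72 h PE) and at 24 h PBM; bars are 95% Wilson intervals and symbols mark the replicate number. The share of miR-1 is higher at 24 h PBM in small RNA and lower in AGO1 CLIP, and the mir-133 shares in AGO1 CLIP have wide intervals.

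The share of mir-1 in AGO1 CLIP at 24 h PBM was 0.715 times that at 72 h PE (exact permutation p = 0.1, the smallest that 3 against 3 allow). In a fit of the 51 tested precursors alone, scaled by their totals without TMM, mir-1 fell by 0.48 on the log2 scale (edgeR adjusted p = 0.00216). There 25.5% of precursors were called and 17.6% as lower. The median change of these precursors was -0.21, and relative to it mir-1 was at -0.27. In the fit over all 687 genes and precursors with TMM its log2 change was 0.31 (SE 0.29; edgeR adjusted p = 0.442), of the opposite sign, and with library totals it was -0.32 (edgeR adjusted p = 0.36). That scaling moves the median of all features by -0.63. Relative to that median the change was 0.24 under both. The direction of mir-1 thus differed between settings, also within the fits over all AGO1-bound RNA. For mir-133 the log2 change over all features was 1.31 (SE 0.53; edgeR adjusted p = 0.0725), where 24.7% were called and 13.2% as higher. It was 0.69 with library totals (edgeR adjusted p = 0.334), 0.61 on single peaks (edgeR adjusted p = 0.501) and 0.56 on precursors alone (edgeR adjusted p = 0.572). Without replicate 3 of 24 h PBM it was 1.68 and passed (edgeR adjusted p = 0.0287). No other single library left out gave a call, with log2 changes down to 0.95 without replicate 2 of 72 h PE (edgeR adjusted p = 0.297).

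The members held very different shares in AGO1 CLIP and in small RNA. In the small RNA libraries miR-1 made up 0.0246% to 0.0361% of miRNA reads at 72 h PE and 0.0941% to 0.103% at 24 h PBM, and miR-133 made up 0.0133% to 0.0162% and 0.0117% to 0.0159%. The AGO1 CLIP share of mir-1 was thus 137-fold its small RNA share at 72 h PE (log2 difference 7.10, SE 0.17) and 28.3-fold at 24 h PBM (4.82, SE 0.05). For mir-133 the AGO1 CLIP share was 3.82-fold higher at 72 h PE (1.93, SE 0.23) and 5.73-fold higher at 24 h PBM (2.52, SE 0.53). Assays did not overlap for either member at either time. With both times as strata, the exact permutation p was 0.005 for each, the smallest that the 400 regroupings allow. A gap of this kind was common. The 74 precursors tested were also fitted without TMM, scaled by their summed counts in each library. Their median log2 gap was 1.94 at 72 h PE and 1.26 at 24 h PBM, so that of mir-133 at 72 h PE was near the median.

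**Figure D4:**
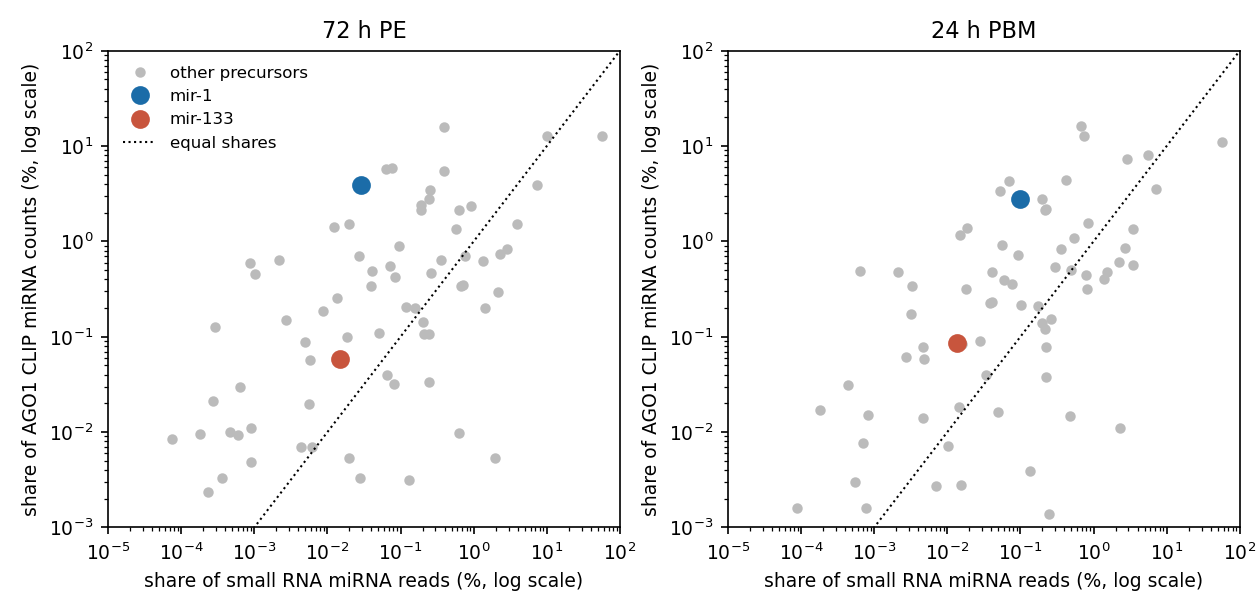
Mean share in AGO1 CLIP against mean share in small RNA for the 75 precursors seen in both, at 72 h PE (left) and 24 h PBM (right), both in percent on log axes; the dotted line marks equal shares, and the 6 points with no CLIP count are not drawn. mir-1 lies far above the line, at 3.93% against 0.0290% and 2.81% against 0.0994%, while mir-133 lies closer to it, at 0.0587% against 0.0151% and 0.0852% against 0.0134%.

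A share depends on what else is in its total. A high small RNA share of a few miRNAs lowers all others, and without miR-8, the most abundant, the gap was 67.4-fold at 72 h PE and 13.6-fold at 24 h PBM for mir-1, and 1.87-fold and 2.76-fold for mir-133. Of the 74 tested in a joint edgeR model of both assays with TMM scaling, 86.5% passed for both times together, 37.8% as higher in AGO1 CLIP. That was 28 higher and 36 lower, against 45 and 21 with the precursor totals alone, which raise the median gap of all precursors by 2.13. In the joint model with TMM mir-1 was 3.82 higher in AGO1 CLIP on the log2 scale (SE 0.14, edgeR adjusted p = 6.83e-12). The gap of mir-133 was 0.17 (SE 0.28) and did not pass (edgeR adjusted p = 0.575). For mir-133 it was -0.39 at 72 h PE (edgeR adjusted p = 0.383), of the opposite sign to its gap in share. At 24 h PBM it was 0.72 (edgeR adjusted p = 0.085). By fold between mean shares, mir-1 was 5th of 75 precursors at 72 h PE, between mir-307 and mir-980, and 11th at 24 h PBM, between mir-79 and mir-305. mir-965 led at both times. mir-133 was 38th at 72 h PE, between mir-998 and mir-87, and 29th at 24 h PBM, between mir-9b and mir-1889. By level, mir-1 was 8th of 75 in AGO1 CLIP and 44th of 88 in small RNA at 72 h PE, and 10th and 35th at 24 h PBM. mir-133 was 51st and 52nd, then 47th and 57th.

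The ratio of mir-1 to mir-133 in AGO1 CLIP was 75.7, 83.1 and 51.3 at 72 h PE and 25.9, 25.5 and 76.0 at 24 h PBM. All 6 values exceeded those of every small RNA library. The geometric mean was 34.4-fold the small RNA ratio at 72 h PE and 4.80-fold at 24 h PBM (exact permutation p = 0.005 with both times as strata). Within AGO1 CLIP the log2 ratio changed by -0.87 from 72 h PE to 24 h PBM (exact permutation p = 0.2), with replicate 3 of 24 h PBM inside the earlier range. The denominators rest on 9 to 33 counts.

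From 72 h PE to 24 h PBM miR-1 moved in opposite directions in the assays as a share of miRNA counts, 3.47-fold higher in small RNA and 0.715-fold in AGO1 CLIP. In AGO1 CLIP the mean share of mir-305 rose from 2.13% to 16.4% and that of mir-275 from 2.11% to 7.27%. Such rises lower the shares of all other precursors, and their part in the lower share of mir-1 was not tested. The joint model tested the difference between the assays' changes. For mir-1 the change in AGO1 CLIP was 1.91 log2 units below that in small RNA (interaction -1.91, SE 0.26; edgeR adjusted p = 0.000338). It was the 1st of 4 precursors called among 74, 5.41% in all and 4.05% as lower. The others were mir-305 (1.499), mir-1889 (-1.34) and mir-7 (-1.78). The interaction of mir-133 was 1.10 (SE 0.55) and did not pass (edgeR adjusted p = 0.286). Over 14 alternatives of scaling, of the replicate block or of the libraries kept, the median of all precursors in this test lay between -0.16 and 0.97 and the number called between 3 and 38. Relative to that median, mir-1 was at -2.28 to -1.995 and stayed called in all 14, and mir-133 was at 0.72 to 1.29.

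Genes of muscle were read in AGO1 CLIP as a view of muscle RNA in these libraries; gene RNA was not measured apart from AGO1 binding. Names with words such as myosin, actin or troponin gave 79 genes, some of which act in all cells. Their summed level was 11157 to 12661 per 1000000 counts on annotated features other than repeats at 72 h PE and 6808 to 12905 at 24 h PBM, so the times overlapped. Of 15 genes tested 3 were called higher at 24 h PBM, where 13.2% of all 687 features were. As lower 0 were called, where 79 of the 687 features were. The fitted log2 change was above 0 for 12 and below 0 for 3, with a median of 0.69 against 0.07 over all 687. These signs are from the fit with TMM. Library totals move the median of all features by -0.63, and signs of the muscle genes were not counted under them. Troponin t (AAEL002417), part of the calcium switch of the muscle filament, had 59, 39 and 46 counts and then 62, 66 and 81 in libraries of unequal depth, and its log2 change of 0.89 did not pass (edgeR adjusted p = 0.0913). Those below 0 were an actin (AAEL011197, -0.67), a calponin/transgelin (AAEL008315, -0.72) and an actin binding protein (AAEL005424, -0.66), none past the threshold. Those called higher were another actin (AAEL001673, 2.31), a myosin heavy chain named as nonmuscle or smooth muscle (AAEL005733, 1.47) and a muscle lim protein (AAEL006866, 1.54), a kind of protein of the muscle fibre. Among the fat body genes Vitellogenin-A1 (AAEL010434) was 41.1-fold higher. The 12 midgut digestion genes had 9 to 17 counts per library at 72 h PE and 8 to 19 at 24 h PBM, and none reached the test. The part of muscle RNA in the values of miR-1 and miR-133 was not tested.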

How the data were processed

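Per the deposited sheet titles, the authors gave raw read counts for 124 mature miRNAs of miRBase release 21 and, separately, the same as RPM, reads per 1000000 reads of each library. Per the deposited column explanations, the AGO1 CLIP table gives raw counts per peak and library over 1 common set of peaks on AaegL3. R 3.1.2, bedtools 2.17.0, TopHat2 2.0.14 and Bowtie2 2.2.3 were among the tools, per the submitters' processing notes, with no role given. The table of predicted miRNAs was not used here. RPM values entered only as an alternative.

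Counts were tested with edgeR 4.0.16 (R 4.3.3; quasi-likelihood F test, robust, TMM, filterByExpr, Benjamini-Hochberg over all rows, threshold 0.05) in 1 model of 15 small RNA libraries, 1 of 6 CLIP libraries with peaks summed per gene or precursor, and 1 joint model of the 12 libraries of both shared times on precursors. The edgeR p-values judge a difference between groups against the spread between the libraries of a group. Ratios had 0.5 added to both counts in the tests, and used exact permutation over libraries. DESeq2 1.42.0 and limma 3.58.1 served as alternatives, and the fits were tested on simulated data. The genes named were the members, the 5 miRNAs most like each, their neighbours in order of gap, and marker lists. The members, lists and tests were chosen with earlier results of these data known. No precursor arm was guessed: mature rows were summed to precursors by name.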

Additional observations from a re-analysis of the deposited data

Results flagged for a closer look

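The change of mir-1 from 72 h PE to 24 h PBM differed between the assays by -1.91 on the log2 scale. This was AGO1 CLIP minus small RNA (-1.9108, edgeR adjusted p = 0.000338). In share, all 3 small RNA libraries of 24 h PBM were above those of 72 h PE and all 3 AGO1 CLIP libraries below. The direction of mir-1 in AGO1 CLIP alone depended on the setting. Its log2 change was -0.48 on precursors alone (edgeR adjusted p = 0.00216). Over all 687 genes and precursors with TMM it was 0.31 (edgeR adjusted p = 0.442).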

How the results depend on the processing

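The rise of miR-1 from 72 h PE to 24 h PBM kept its call under all 15 alternatives (log2 1.53 to 1.90, adjusted p 0.000257 to 0.0379 by edgeR, DESeq2 or limma), as did its interaction between the assays under all 14 and the AGO1 gap of mir-1 under all 16. Of 370 values under an alternative for the main comparisons, 316 kept their direction and side of the threshold. Those that stayed short of the threshold count among the 316. Of the others 19 changed sign, 21 passed only under the alternative, 13 no longer passed and 1 moved by more than the SD between libraries. Causes of the changes were not tested.

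The late levels against 72 h PE passed under other settings. At 36 h PBM the log2 change of miR-133 was 0.977 with library totals, 0.704 with DESeq2, and 0.935 and 0.925 with limma on log2 RPM (pseudocounts of 0.5 and 1). At 48 h PBM it was 1.091, 0.699, 1.02 and 1.01 in that order, and that of miR-1 was 1.229 with library totals and 1.244 and 1.238 with limma. With library sizes taken without miR-8-3p, the step of miR-133 from 24 to 36 h PBM (0.930) and its test over 5 times (adjusted p = 0.106) were lost. The step of miR-1 from 24 to 36 h PBM was lost with only both compared times (-1.42). Values of miR-133 near 0 changed sign: at 6 h PBM with library totals (0.0991), limma (0.0896 and 0.0884) and sizes without miR-8-3p (0.0174), and from 36 to 48 h PBM with library totals (0.114), a 10 CPM filter (0.103), limma (0.0855 and 0.0850), sizes without miR-8-3p (0.0197) and only both compared times (0.101). In AGO1 CLIP the change of mir-1 was -0.318 with library totals, -0.330 on single peaks and -0.484 on precursors alone, and the joint model with TMM put the gap of mir-133 at 0.165.

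Leaving out 1 library at a time gave, for miR-133, -0.340 to 0.0239 at 6 h PBM, 0.281 to 0.819 at 48 h PBM, 0.750 to 1.182 from 24 to 36 h PBM, -0.222 to 0.278 from 36 to 48 h PBM and adjusted p of 0.0170 to 0.0501 over the times. For miR-1 it gave -0.182 to 0.605 at 36 h PBM, 0.722 to 1.08 at 48 h PBM, -1.879 to -1.073 from 24 to 36 h PBM and adjusted p of 0.00258 to 0.0536 over the times. For mir-133 it gave 0.952 to 1.679 in AGO1 CLIP and 0.646 to 1.906 for the interaction, which passed without any 1 of the 6 small RNA libraries. The ratio over time had exact p of 0.00529 to 0.123 without the libraries of 1 number, and its log2 change at 24 h PBM was 1.842 to 2.207. Its change at 36 h PBM was -1.01 to 0.00507, the last, of the opposite sign, without replicate 1.

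Libraries shared only a number between groups. Deviations correlated above 0.1 in 21 of 30 same-numbered small RNA pairs, against 10 of 60 pairs of different numbers. In CLIP 2 of 3 same-numbered pairs did so, against 0 of 6. Same-numbered small RNA pairs ran from r = -0.733 to 0.513, and pairs of different numbers from -0.616 to 0.813. In all, 13 of 15 and 5 of 6 libraries correlated best with their own number, a hint from the data and not the design. With the replicate block, miR-133 at 36 h PBM (0.686) and 48 h PBM (0.659) and miR-1 at 48 h PBM (0.883) passed, the ratio over time had exact p = 0.000486, the joint gap of mir-133 was 0.158, and miRNAs called from 24 to 36 h PBM went from 20 to 32.

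In AGO1 CLIP 170 of 687 features were called, against 262 of 680 with library totals, 359 of 939 single peaks and 13 of 51 precursors alone; the last is 25.5%, close to the 24.7% of the first. Calls also moved by more than 1.5 times from 6 to 24 h PBM (17, against 26 with DESeq2) and in the interaction (4, against 20 to 38 without any 1 small RNA library). Higher and lower calls at 24 h PBM were 20 and 7, against 22 and 2 with library totals, 17 and 13 against 24 and 4 at 36 h PBM, 17 and 11 against 33 and 4 at 48 h PBM, and 91 and 79 against 60 and 202 in AGO1 CLIP. Depth also limits mir-133 in AGO1 CLIP, at 9 to 33 counts per library.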

Other observations

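The libraries numbered 1 held the lowest ratio of miR-1 to miR-133 at 4 of the 5 times and the highest level of miR-133 at 4 of the 5, which was noticed after the values were seen.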
